A study of Rattus norvegicus with 16 samples.

Results

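Cyclins are the regulatory subunits that switch on cyclin-dependent kinases, and their transcripts come and go with the cell cycle. The 6 cyclin genes described here act at the G1/S transition (Ccne1 and Ccne2, the E cyclins that activate Cdk2 for entry into S phase), from S phase to mitosis (Ccna2, the A cyclin of S phase and G2, Ccnb2, a B cyclin that activates Cdk1 for mitosis, and Ccnf, which does not activate a kinase but is the F-box subunit of an SCF ubiquitin ligase active in G2), or answer to p53 (Ccng1, cyclin G1). They were chosen by symbol: a feature (cDNA spot) of the chip was used where its mouse annotation listed exactly 1 symbol, equal to that of a member, and the features of a symbol were averaged on each array. This gave 11 of the chip's 15151 features and 6 of 6241 named genes. Ccna2 and Ccng1 had 3 features each, Ccnf had 2, and Ccnb2, Ccne1 and Ccne2 had 1 each.

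As background, mitogens such as FGF-2 and PDGF act on G1 through D-type cyclins, whose kinases phosphorylate the retinoblastoma proteins and release E2F factors. E2F then raises the genes of DNA synthesis together with the E cyclins. Genes of G2 and mitosis peak later, and are held down in resting cells by the DREAM complex, which binds an element with the letters TTTGAA known as the cell cycle genes homology region. In the embryonic neocortex, cells leave the cell cycle as they become neurons, and cyclin transcripts are commonly read as marks of dividing cells.

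RNA came from neural stem/progenitor cells (NSPCs) of the neocortex of Sprague-Dawley rat embryos at embryonic day 14.5, grown as a monolayer on poly-L-ornithine and fibronectin in N2 medium with FGF-2 at 10 ng/ml. The 4 groups were cells with no added factor (labelled untreated) for 12 h, cells with PDGF-AA at 10 ng/ml for 12 h, cells with no added factor for 6 d, and cells with PDGF-AA at 10 ng/ml for 6 d. All of them came from cultures first expanded in FGF-2, and the labels state that growth without factor induces differentiation. Each group had 4 arrays, 2 with the sample in Cy5 and 2 with it in Cy3, and the other dye carried RNA of FGF-2-treated cells as the common reference. At least 2 RNA preparations lie behind each group's arrays, per the labels, but which arrays share a preparation is not given, so the p-values take in only how far these hybridisations differ, and that spread may be technical.

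Values are log2 ratios of sample over FGF-2 reference, each array centred on the median of all its features, and changes carry the standard error (SE) from limma with n = 4 arrays per group. A change was called where its Benjamini-Hochberg adjusted p over all 12559 units tested was under 0.05, in a two-sided test. The log base, taken as 2, and the direction, taken as sample over reference, are both unstated in these sources. The basis for the direction is that DNA replication genes lie below 0 after the mitogen was withdrawn, so the fall of cell cycle genes is not independent of that choice. Tests against 0 leave out the spread of the reference. In bulk RNA, fewer dividing cells and less of a transcript per cell cannot be told apart.

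Facts of the whole series bear on these genes in 3 ways. Rat RNA was read on mouse cDNA, and spot intensities were not used here, so the signal over background is unknown. A dye effect past the threshold was present in 39.1% of units, and among the members it was called for Ccna2 (0.78 higher with the sample in Cy5), Ccng1 (0.49 higher) and Ccnf (-0.51, lower with the sample in Cy5). Array 1 of PDGF-AA at 6 d, the only array of its title number, stood above the other 3 arrays of its group for Ccna2, Ccnb2, Ccne1 and Ccng1, and results are given without it where that changed a call. What the first number in an array's title means is not given: 12 arrays share the commonest number, all 8 arrays at 12 h and 3 with no factor and 1 with PDGF-AA at 6 d among them, and the other 4 arrays have 3 other numbers. With the title number as a term in the fit, PDGF-AA at 6 d rests on its 1 array of the commonest number, array 4. Cell identity could not be read from ratios as a level. Against the reference, 2 of the 4 tested neural stem and progenitor markers were lower with no factor at 12 h. With no factor at 6 d 1 was lower, with PDGF-AA at 6 d 1, and with PDGF-AA at 12 h none. Their mean log2 ratios were alike, at -0.31 and -0.32 with no factor at 12 h and 6 d, and -0.30 and -0.33 with PDGF-AA. All 5 tested astrocyte markers were higher with no factor at 6 d, where their mean log2 ratio was 1.78 (1.29 to 2.25 over arrays). It was 0.59 with no factor at 12 h, 0.30 with PDGF-AA at 12 h and 0.83 with PDGF-AA at 6 d. Fibroblast and mesenchymal markers (5 tested) had means of 0.20, 0.16, 0.77 and 0.58 in no factor at 12 h, PDGF-AA at 12 h, no factor at 6 d and PDGF-AA at 6 d, with 4 of 5 called higher with no factor at 6 d. With PDGF-AA at 6 d, 3 of 5 astrocyte and 2 of 5 fibroblast markers were called higher. Of 5 tested neuron markers 2 were called higher with no factor at 12 h and 2 at 6 d, 1 with PDGF-AA at 12 h and 0 at 6 d (means 0.13, 0.33, 0.20 and 0.02), and 1 was lower with no factor at 12 h. The oligodendrocyte lineage marker tested, Pdgfra, was called higher with no factor at 6 d (1.51; 0.97, 0.44 and 0.90 in no factor at 12 h, PDGF-AA at 12 h and PDGF-AA at 6 d). The 2 tested microglial and the 2 tested endothelial markers were not called against the reference in any group. The part of these other cell types in the cyclin values was not tested.

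The rat genes of the same symbols lie, in the RefSeq annotation of GRCr8, at chr2:121355363-121361762 (Ccna2), chr8:79968459-79981717 (Ccnb2), chr1:99918672-99927986 (Ccne1), chr5:29082169-29094879 (Ccne2), chr10:13757884-13783669 (Ccnf) and chr10:25678503-25684876 (Ccng1). The promoters are shown to set side by side the letters of members read at different stages of the cycle. Ccne1 alone stands for G1/S, so a difference by stage cannot be read from them. The RefSeq promoter table of GRCr8 was matched by symbol for 4 of the 6 genes (Ccnb2, Ccne1, Ccnf and Ccng1), and 250 bases before each start were searched on both strands for TTTGAA, for CCAAT (the box bound by NF-Y), for 4 E2F words and for the p53 decamer. The E2F words were TTTCCCGC, TTTCGCGC, TTTGCCGC and TTTGGCGC. Of all 33469 promoters of this length, 16.2% held TTTGAA, 34% CCAAT, 1.73% an E2F word and 6.64% the p53 decamer. The 4 stretches are written 5′ to 3′ on the minus strand, on which all 4 genes lie, with matches in capitals. Bases that lie inside the annotated span of the gene are left out, 59 for Ccnb2 and 77 for Ccne1. The regions are chr8:79981718-79981908 for Ccnb2, chr10:13783670-13783919 for Ccnf, chr10:25684877-25685126 for Ccng1 and chr1:99927987-99928159 for Ccne1.
Ccnb2: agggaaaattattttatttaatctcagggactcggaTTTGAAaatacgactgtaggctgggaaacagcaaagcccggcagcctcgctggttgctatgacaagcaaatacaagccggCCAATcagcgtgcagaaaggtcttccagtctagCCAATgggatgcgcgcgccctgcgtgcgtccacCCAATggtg
Ccnf: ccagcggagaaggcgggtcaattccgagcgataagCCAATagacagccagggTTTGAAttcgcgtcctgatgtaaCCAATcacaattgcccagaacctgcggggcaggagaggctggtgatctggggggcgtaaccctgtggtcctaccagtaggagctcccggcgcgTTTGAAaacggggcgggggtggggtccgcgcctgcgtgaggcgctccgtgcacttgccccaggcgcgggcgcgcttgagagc
Ccng1: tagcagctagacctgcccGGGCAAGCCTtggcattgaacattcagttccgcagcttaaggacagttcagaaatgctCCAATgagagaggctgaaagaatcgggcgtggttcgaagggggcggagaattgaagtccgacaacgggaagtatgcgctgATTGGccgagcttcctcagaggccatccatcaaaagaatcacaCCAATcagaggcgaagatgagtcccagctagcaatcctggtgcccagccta
Ccne1: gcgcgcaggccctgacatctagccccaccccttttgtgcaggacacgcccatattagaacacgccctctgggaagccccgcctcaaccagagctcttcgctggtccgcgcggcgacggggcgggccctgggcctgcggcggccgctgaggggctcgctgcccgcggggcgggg
The mitotic gene Ccnb2 carried 3 CCAAT boxes, at 134, 101 and 68 bases before its start and thus 33 bases apart, and TTTGAA at 214 and again at 43 bases before it, the latter among the bases left out. Ccnf carried 2 CCAAT boxes, at 215 and 175 bases, and 2 copies of TTTGAA, at 198 and 82 bases before its start. Ccng1 carried no TTTGAA, but 3 CCAAT boxes (1 of them on the other strand as ATTGG) and the p53 decamer at 232 bases. Ccne1 held none of the 4 motifs in its 250 bases, which says only that these letters are not in this window. No match overlapped another. Among listed genes measured on the chip, TTTGAA was in 53.3% of 30 promoters of G2/M genes and 8.0% of 25 promoters of G1/S and replication genes, and an E2F word in 0.0% and 28.0% of them. A match is a description of the sequence and not a binding site.

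After 12 h with no factor, transcripts of 5 of the 6 cyclins were lower than in FGF-2-treated cells, against a background of 6.48% of all units called lower in that comparison. Ccna2 fell 3.77-fold, Ccne1 3.21-fold, Ccnf 2.11-fold, Ccnb2 1.94-fold and Ccng1 1.51-fold, while Ccne2 read -0.05 and was not called. With PDGF-AA for 12 h, 4 of the 6 were called lower (background 2.35%): Ccna2, Ccnb2, Ccnf and Ccng1, and not Ccne1. After 6 d with no factor, 4 of the 6 were called lower (background 6.73%): Ccna2, Ccnb2, Ccne1 and Ccng1, and not Ccnf. After 6 d with PDGF-AA none of the 6 was called by limma (background 1.32% lower), with 2 at an unadjusted p under 0.05 (15.5% of units). The median over the 6 members was -1.02, -0.65, -0.55 and -0.12 on the log2 scale in these 4 groups, beside medians of all units between -0.001 and 0.0043. All 4 groups were read against the same reference, so these counts share it.

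**Figure D1:**
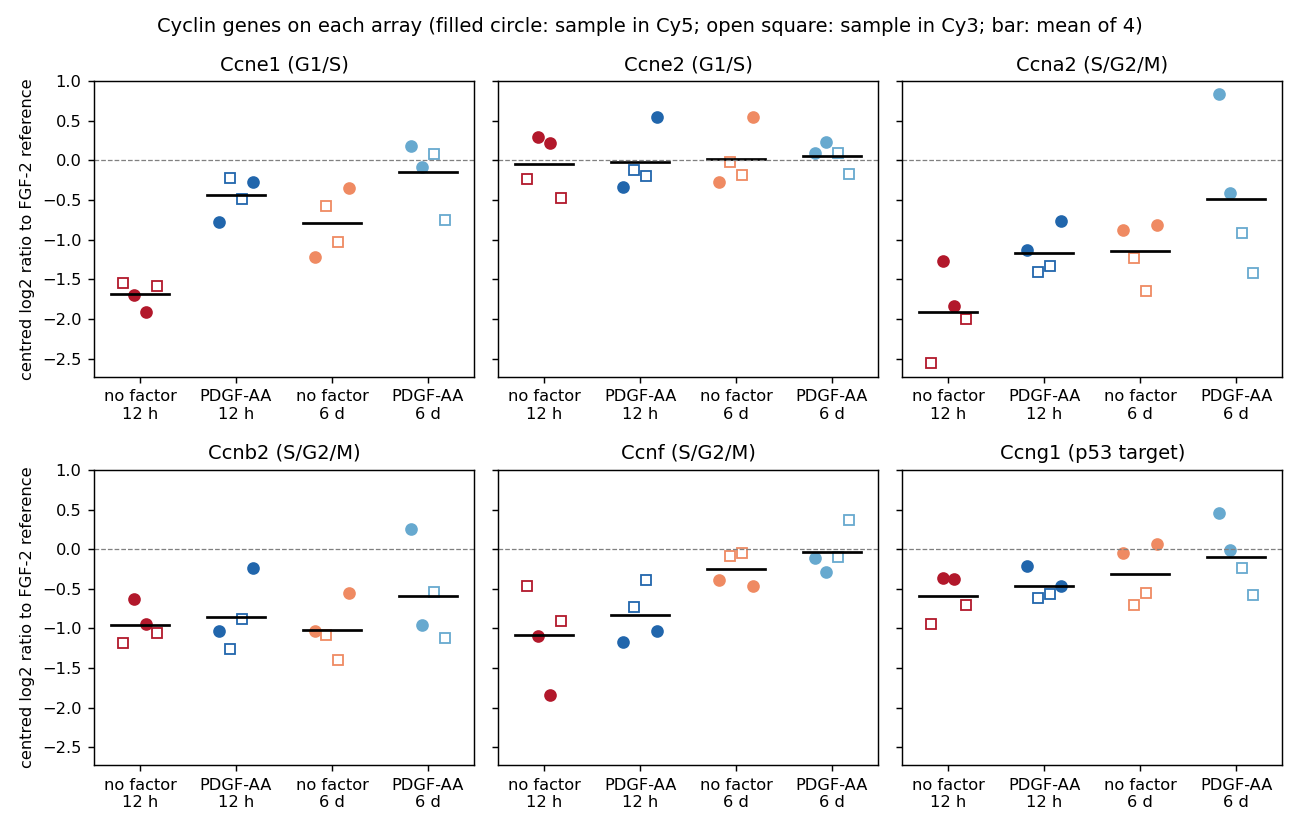
Centred log2 ratio of each cyclin to the FGF-2 reference (vertical axis) on each of the 16 arrays, by group (horizontal axis). Filled circles are arrays with the sample in Cy5, open squares arrays with it in Cy3, and bars the mean of 4 arrays. Ccne1 with no factor at 12 h lies between -1.91 and -1.54, below its arrays of every other group. Such a separation was not counted over all units.

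The 2 E cyclins of G1/S did not move alike. Ccne1 read -1.54, -1.70, -1.91 and -1.58 on arrays 1 to 4 (numbered in order of accession) of no factor at 12 h, and -0.78, -0.22, -0.49 and -0.28 on those of PDGF-AA at 12 h. At 6 d it read -1.22, -0.57, -1.03 and -0.35 with no factor, and 0.18, -0.08, 0.08 and -0.76 with PDGF-AA. The 4 arrays of no factor at 12 h lay below all other 12, while the remaining groups overlapped, with no factor at 6 d the lower of them. The share of all units with 4 arrays below the other 12 was not counted. Against the reference Ccne1 fell by 1.68 ± 0.15 with no factor at 12 h (limma adjusted p = 4.89e-06) and by 0.79 ± 0.15 with no factor at 6 d (limma adjusted p = 0.00199). With PDGF-AA its changes were -0.44 ± 0.15 at 12 h (limma adjusted p = 0.168) and -0.15 ± 0.15 at 6 d (limma adjusted p = 0.721), neither of them called. The value with PDGF-AA at 6 d depends on the title number: with it as a term it was -0.79 ± 0.25 (limma adjusted p = 0.166), and over arrays of the commonest number -0.78 ± 0.26. From low to high the order of the group means was no factor at 12 h, no factor at 6 d, PDGF-AA at 12 h and PDGF-AA at 6 d. In that order only the arrays of the lowest group stood clear of those of its neighbour, and with a term for title number PDGF-AA at 6 d was below no factor at 6 d (-0.66). The dye effect of Ccne1 was -0.003 between Cy5 and Cy3, so its arrays can be read as they stand.

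Ccne2, the other E cyclin, stayed near the reference in all 4 groups. Its arrays read -0.23, 0.29, 0.22 and -0.48 with no factor at 12 h, and -0.33, -0.12, -0.19 and 0.54 with PDGF-AA at 12 h. At 6 d they read -0.27, -0.02, -0.18 and 0.55 with no factor, and 0.09, 0.23, 0.09 and -0.17 with PDGF-AA. Every group had arrays on both sides of 0, and all 4 groups overlapped. Its changes against the reference were -0.05, -0.02, 0.02 and 0.06, each ± 0.14, in the order no factor at 12 h, PDGF-AA at 12 h, no factor at 6 d and PDGF-AA at 6 d (limma adjusted p = 0.891, 0.987, 0.975 and 0.889). The 95% interval with no factor at 12 h was -0.33 to 0.24, where that of Ccne1 was -2.01 to -1.35. Ccne2 rests on 1 feature, whose signal over background is unknown here.

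Ccna2 had the lowest mean of the 6 members with no factor and with PDGF-AA at 12 h. With no factor at 12 h its arrays read -2.56, -1.27, -1.84 and -1.99, and with PDGF-AA at 12 h -1.13, -1.41, -1.34 and -0.77. At 6 d they read -0.87, -1.24, -1.64 and -0.81 with no factor, and 0.83, -0.41, -0.92 and -1.42 with PDGF-AA. Of all 16 arrays only array 1 of PDGF-AA at 6 d was above 0, and neighbouring groups overlapped with the dye effect left in. The arrays with the sample in Cy3 tended to read lower, and the fit takes the dye effect of Ccna2 out. With it removed, no factor at 12 h (-2.23 to -1.60) stood clear below PDGF-AA at 12 h (-1.52 to -0.95). The later neighbours still overlapped. The share of all units that stand clear with the dye effect removed was not counted. The change of Ccna2 was -1.92 ± 0.18 with no factor at 12 h, rank 8 from the lowest of all units tested (limma adjusted p = 5.52e-06), -1.16 ± 0.18 with PDGF-AA at 12 h (limma adjusted p = 0.00228) and -1.14 ± 0.18 with no factor at 6 d (limma adjusted p = 0.000448), all called lower. With PDGF-AA at 6 d its change of -0.48 ± 0.18 was not called (limma adjusted p = 0.195). Without array 1 of that group it was -0.82 ± 0.15 and called (limma adjusted p = 0.0038), and with a term for title number -1.14 ± 0.25 and called (limma adjusted p = 0.0475). The group means ran from no factor at 12 h through PDGF-AA at 12 h and no factor at 6 d, which differed by less than their spread, to PDGF-AA at 6 d, whose distance from no factor at 6 d was lost with the title number as a term.

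Each of the 3 Ccna2 features, fitted on its own over 15150 features, was called lower in the first 3 of these groups. With no factor at 12 h they read -2.15 ± 0.20, -2.08 ± 0.23 and -1.52 ± 0.16 (limma adjusted p-values from 2.37e-06 to 1.03e-05). In PDGF-AA at 6 d they read -0.52, -0.37 and -0.56, and none was called.

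Ccnb2, the B cyclin of mitosis, was called lower in 3 groups. Its arrays read -1.18, -0.63, -0.94 and -1.06 with no factor at 12 h and -1.03, -1.26, -0.88 and -0.24 with PDGF-AA at 12 h. At 6 d they read -1.03, -1.08, -1.40 and -0.56 with no factor, and 0.25, -0.95, -0.54 and -1.12 with PDGF-AA. All groups overlapped, and array 1 of PDGF-AA at 6 d was again the only one above 0. It was called lower at -0.95 ± 0.17 with no factor at 12 h (limma adjusted p = 0.000964), at -0.85 ± 0.17 with PDGF-AA at 12 h (limma adjusted p = 0.00866) and at -1.02 ± 0.17 with no factor at 6 d (limma adjusted p = 0.000494). With PDGF-AA at 6 d the change was -0.59 ± 0.17 (limma adjusted p = 0.0667), and without array 1 it was -0.82 ± 0.16 and called (limma adjusted p = 0.00935). With the title number as a term it was -0.96 ± 0.30 and not called (limma adjusted p = 0.162). Its call in PDGF-AA at 12 h was lost when array 1 or array 2 of that group was left out (limma adjusted p up to 0.108). No neighbouring group means of Ccnb2 differed beyond their spread.

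Ccnf, the F-box cyclin, was called lower at 12 h and not at 6 d, with or without PDGF-AA. Its arrays read -0.47, -1.10, -1.84 and -0.91 with no factor at 12 h and -1.16, -0.72, -0.39 and -1.03 with PDGF-AA at 12 h. At 6 d they read -0.38, -0.09, -0.04 and -0.47 with no factor, and -0.12, -0.29, -0.10 and 0.37 with PDGF-AA. With the dye effect left in, the PDGF-AA arrays at 6 d all lay above those at 12 h, and with no factor the times met at -0.47. With it removed, the times stood apart with no factor too, at -1.59 to -0.72 and -0.34 to -0.13. The treatments overlapped at each time either way. Its group means ran in the order no factor at 12 h, PDGF-AA at 12 h, no factor at 6 d and PDGF-AA at 6 d. Neighbours in that order overlapped with the dye effect left in. With it removed, PDGF-AA at 12 h (-0.98 to -0.64) stood clear of no factor at 6 d. How many of all units stand apart with the dye effect removed was not counted. Ccnf fell by 1.08 ± 0.12 with no factor at 12 h (limma adjusted p = 2.12e-05) and by 0.83 ± 0.12 with PDGF-AA at 12 h (limma adjusted p = 0.00175). At 6 d its changes were -0.25 ± 0.12 with no factor (limma adjusted p = 0.253) and -0.03 ± 0.12 with PDGF-AA (limma adjusted p = 0.928).

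The 2 features of Ccnf differed in size. The first, H3020E11_1, fell by 1.74 ± 0.14 with no factor at 12 h and by 1.24 ± 0.14 with PDGF-AA at 12 h (limma adjusted p-values 1.34e-06 and 0.000239). The other, H3010F01_1, read -0.42 ± 0.23 and -0.41 ± 0.23 in the same groups and was not called. As deposited, H3010F01_1 read 0.73 and 0.05 on the Cy3 arrays of no factor at 12 h but -0.83 and -1.61 on its Cy5 arrays, whereas H3020E11_1 read between -2.08 and -1.37 on all 4. With PDGF-AA at 6 d H3010F01_1 read 0.24 ± 0.23 and H3020E11_1 -0.31 ± 0.14. With no factor at 6 d they read -0.09 ± 0.23 and -0.41 ± 0.14, and neither was called in either group at 6 d. The value of Ccnf is the average of these features, so its small changes at 6 d join unlike readings.

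**Figure D2:**
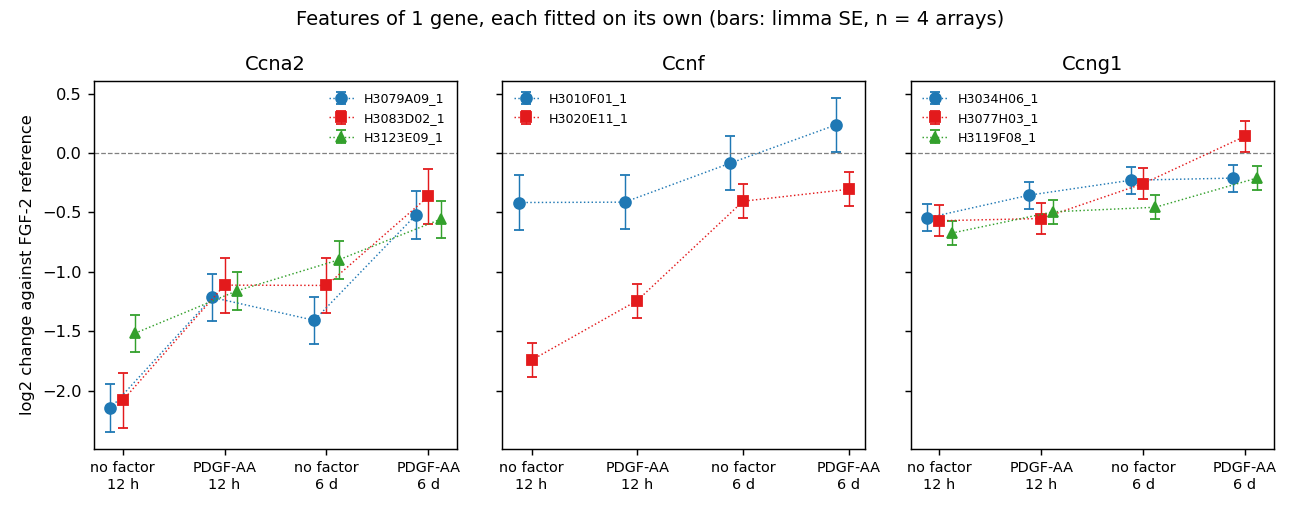
Log2 change against the FGF-2 reference (vertical axis) of each feature of Ccna2, Ccnf and Ccng1 fitted on its own, by group (horizontal axis), with limma SE bars and n = 4 arrays. The 3 Ccna2 features run together, whereas the 2 Ccnf features with no factor at 12 h stand at -0.42 and -1.74.

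Ccng1, a p53 target whose product works with protein phosphatase 2A in the p53 and Mdm2 circuit, had the smallest of the 5 called changes with no factor at 12 h. Its arrays read -0.94, -0.36, -0.38 and -0.70 with no factor at 12 h and -0.22, -0.62, -0.57 and -0.47 with PDGF-AA at 12 h. At 6 d they read -0.05, -0.71, -0.56 and 0.06 with no factor, and 0.45, -0.01, -0.24 and -0.58 with PDGF-AA. All groups overlapped with the dye effect left in, and at 12 h all 8 arrays were below 0. With it removed, no factor at 12 h (-0.70 to -0.46) lay below PDGF-AA at 6 d (-0.33 to 0.20), and the other pairs of groups overlapped. Neither pattern was counted over all units. Ccng1 was called lower at -0.60 ± 0.10 with no factor at 12 h (limma adjusted p = 0.000615), at -0.47 ± 0.10 with PDGF-AA at 12 h (limma adjusted p = 0.0139) and at -0.31 ± 0.10 with no factor at 6 d (limma adjusted p = 0.0419). With PDGF-AA at 6 d it read -0.09 ± 0.10 (limma adjusted p = 0.716), or -0.38 ± 0.19 with the title number as a term (limma adjusted p = 0.406). The call in no factor at 6 d was lost in 14 of 25 alternatives, among them without any 1 of its own 4 arrays, array 1, 2 or 3 of no factor at 12 h, or array 1 or 2 of PDGF-AA at 12 h (limma adjusted p 0.028 to 0.194 leaving out each array). That in PDGF-AA at 12 h was lost in 5 of 25, among them without its array 1, 2 or 4 (0.00811 to 0.0967). All 3 features were called lower with no factor at 12 h (-0.55, -0.57 and -0.67), and with no factor at 6 d only H3119F08_1 was, at -0.46 ± 0.10.

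Set side by side, the G1/S pair was nearer to the reference than the S/G2/M trio in every group. These class values are per-array means with each gene's fitted dye effect removed, and carry no test because the members were chosen with earlier results in view. The mean of Ccne1 and Ccne2 was -0.86 ± 0.08 (SD, n = 4) with no factor at 12 h, -0.23 ± 0.30 with PDGF-AA at 12 h, -0.39 ± 0.37 with no factor at 6 d and -0.04 ± 0.24 with PDGF-AA at 6 d. The mean of Ccna2, Ccnb2 and Ccnf was -1.32 ± 0.24, -0.95 ± 0.22, -0.80 ± 0.11 and -0.37 ± 0.40 in the same order, and Ccng1 alone was at -0.60 ± 0.10, -0.47 ± 0.17, -0.31 ± 0.11 and -0.09 ± 0.25. The G1/S mean lay above the S/G2/M mean on 15 of 16 arrays, all but array 1 of PDGF-AA at 6 d. Their difference was 0.45 ± 0.21 with no factor at 12 h (0.26 to 0.73 over arrays), 0.71 ± 0.21 with PDGF-AA at 12 h (0.49 to 0.93), 0.41 ± 0.28 with no factor at 6 d (0.06 to 0.75) and 0.32 ± 0.37 with PDGF-AA at 6 d (-0.15 to 0.66).

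**Figure D3:**
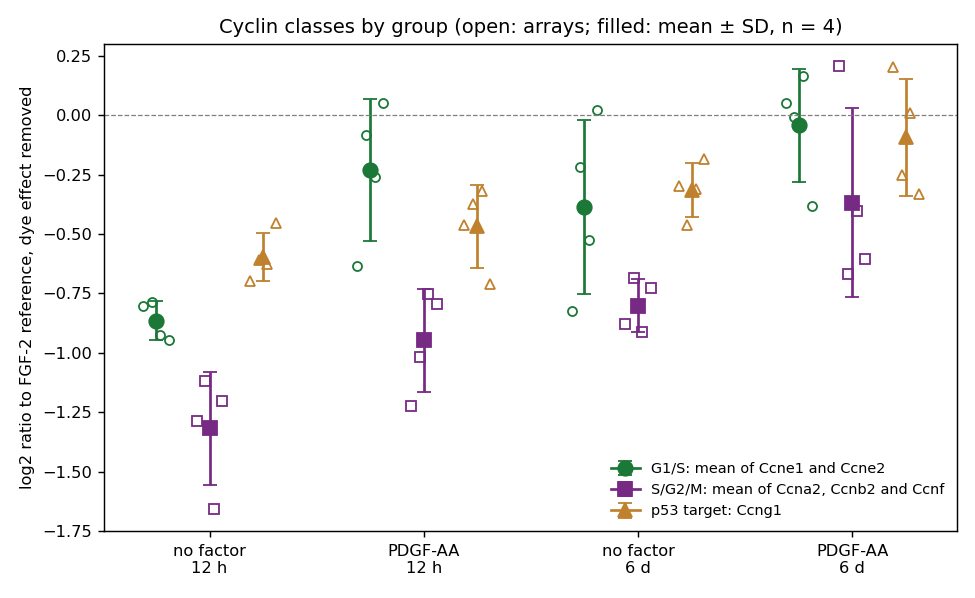
Mean log2 ratio to the FGF-2 reference with the dye effect removed (vertical axis) for the G1/S pair, the S/G2/M trio and Ccng1, by group (horizontal axis). Open symbols are arrays, filled symbols the mean with SD over 4 arrays; with PDGF-AA at 12 h the G1/S mean is -0.23 and the S/G2/M mean -0.95.

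With no factor, at both times, the positive class difference rested on Ccne2, which lay near 0 throughout. With PDGF-AA it rested on Ccne2 in part. With Ccne1 alone as the G1/S member, a choice made after seeing the data, the difference from the S/G2/M trio was -0.37 ± 0.16 (SD, n = 4) with no factor at 12 h (-0.58 to -0.25 over arrays), so that Ccne1 was then the lower. It was 0.51 ± 0.22 with PDGF-AA at 12 h (0.26 to 0.80), 0.01 ± 0.31 with no factor at 6 d and 0.22 ± 0.36 with PDGF-AA at 6 d. At 12 h all 4 arrays with no factor were thus below 0 in this measure, and all 4 arrays with PDGF-AA above 0.

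The effect of PDGF-AA beside no factor was read at each time from the difference of their ratios. At 12 h limma called no member (0 of 6, background 0.0159% of all units in either direction), and 2 of the 6 had an unadjusted p under 0.05 (5.42% of units). Ccne1 came closest: it was higher with PDGF-AA by 1.24 ± 0.22 (95% interval 0.78 to 1.70, 2.36-fold), rank 10 from the highest of all units, with an unadjusted limma p of 3.20e-05 and an adjusted p of 0.0803. With the dye effect left in, all 4 arrays with PDGF-AA lay above all 4 without it, which held for 1.65% of all units and for no other member. Ccne1 stayed uncalled in 21 of 25 alternatives, with limma adjusted p from 0.0182 to 0.455 leaving out each array. Its adjusted p from limma was 0.0122 with the title number as a term in the fit, 0.0137 over the arrays of the commonest title number, 0.00893 over the 2 groups at 12 h fitted alone, and 0.0182 without array 4 of PDGF-AA at 6 d; over the 9 alternatives of processing it ran from 0.00893 to 0.508. Ccna2 differed by 0.75 ± 0.26 (95% interval 0.21 to 1.30, limma adjusted p = 0.732). With the dye effect removed its arrays also stood apart, at -2.23 to -1.60 with no factor and -1.52 to -0.95 with PDGF-AA. The share of all units apart in that measure was not counted. The differences of Ccnb2 (0.10, 95% interval -0.39 to 0.60), Ccne2 (0.02, -0.38 to 0.43), Ccnf (0.25, -0.12 to 0.62) and Ccng1 (0.13, -0.16 to 0.42) had intervals on both sides of 0.

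At 6 d limma called no member between PDGF-AA and no factor (0 of 6, background 0.00796%), and again 2 of 6 had an unadjusted p under 0.05 (8.76% of units). Ccna2 differed by 0.66 ± 0.26 (95% interval 0.11 to 1.21; limma adjusted p = 0.498) and Ccne1 by 0.65 ± 0.22 (0.18 to 1.11; limma adjusted p = 0.447). Both moved with the title number: with it as a term they were -0.003 and -0.12, and over arrays of the commonest title number, which leave 1 array with PDGF-AA at 6 d, 0.002 and -0.12. Ccnb2 differed by 0.43, Ccng1 by 0.22, Ccnf by 0.21 and Ccne2 by 0.04, all with intervals that include 0. With the title number as a term these were 0.005, -0.04, 0.39 and -0.14, and without array 1 of PDGF-AA at 6 d Ccnb2 differed by 0.20. The interaction, which asks whether the PDGF-AA difference itself changed from 12 h to 6 d, called none of the 6 (background 0%) and had 0 of 6 at an unadjusted p under 0.05 (3.96% of units). For Ccne1 it was -0.59 ± 0.31 (95% interval -1.25 to 0.06; limma adjusted p = 0.995), and with a term for title number -1.36 ± 0.33, outside that interval and still not called (limma adjusted p = 0.53). For Ccna2 it was -0.76 ± 0.33 with that term, also not called (limma adjusted p = 0.665).

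Between 12 h and 6 d without factor, 2 of 6 members were called higher (background 1.42%): Ccnf by 0.83 ± 0.17 (limma adjusted p = 0.0193) and Ccne1 by 0.89 ± 0.22 (limma adjusted p = 0.0487). With the dye effect removed, the arrays of Ccnf and of Ccna2 at 6 d lay above those at 12 h, in a measure not counted over all units. For Ccne1 the 4 arrays at 6 d lay above the 4 at 12 h, which held for 3.62% of units with the dye effect left in. Its call was lost in 16 of 25 alternatives, 12 of them the loss of an array: any 1 at 12 h with no factor, array 2, 3 or 4 of PDGF-AA at 12 h, array 2, 3 or 4 of no factor at 6 d, or array 2 or 3 of PDGF-AA at 6 d (limma adjusted p 0.0174 to 0.178 leaving out each array). The call of Ccnf was lost in 10 of 25, among them without array 3 or 4 of no factor at 12 h or array 1, 3 or 4 of no factor at 6 d (0.0135 to 0.0655). Ccna2 differed by 0.77 ± 0.26, which was not called (limma adjusted p = 0.172), though it was without array 1 of PDGF-AA at 6 d (limma adjusted p = 0.0313). Ccnb2 differed by -0.06 ± 0.23 (95% interval -0.56 to 0.43). With PDGF-AA, Ccnf alone was called higher at 6 d (1 of 6, background 0.637%), by 0.79 ± 0.17 (limma adjusted p = 0.0352), with its arrays at 6 d all above those at 12 h (1.66% of units). This call was lost in 12 of 25 alternatives, among them the title number as a term (0.93 ± 0.29, limma adjusted p = 0.315) and the loss of array 1, 2 or 4 of PDGF-AA at either time (0.0128 to 0.131). Of the Ccnf features, H3020E11_1 was called in both comparisons of time (1.34 ± 0.20 and 0.94 ± 0.20) and H3010F01_1 in neither (0.33 ± 0.32 and 0.65 ± 0.32). Whether every array carried the same reference RNA is not stated; if not, differences between times include differences between references.

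**Figure D4:**
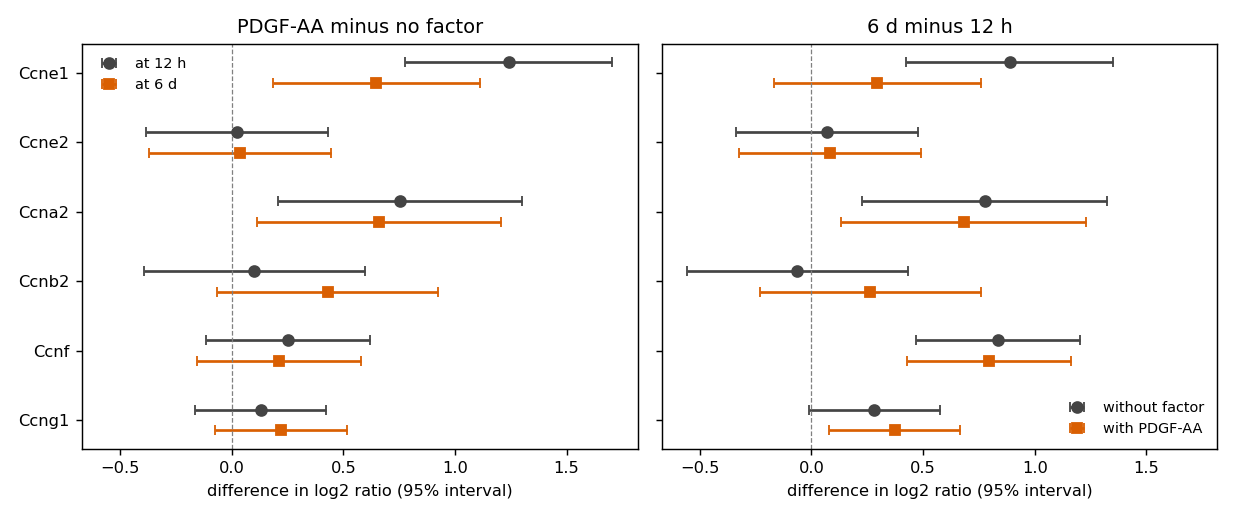
Differences in log2 ratio (horizontal axis, with 95% limma intervals) of the 6 cyclins (vertical axis), PDGF-AA minus no factor on the left and 6 d minus 12 h on the right. Ccne1 at 12 h lies farthest from 0, at 1.24 with an interval of 0.78 to 1.70, and Ccne2 lies near 0 in all 4 differences.

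The genes around the cyclins were counted from lists of the same roles. Over all units, 6.48% were called lower and 5.21% higher with no factor at 12 h, 2.35% and 0.661% with PDGF-AA at 12 h, 6.73% and 6.99% with no factor at 6 d, and 1.32% and 1.9% with PDGF-AA at 6 d. Of 27 tested genes of G1/S and DNA replication, 23 were lower with no factor at 12 h, 12 with PDGF-AA at 12 h, 20 with no factor at 6 d and 1 with PDGF-AA at 6 d, and none was higher. Their medians were -1.13, -0.44, -0.70 and -0.17, beside -1.68, -0.44, -0.79 and -0.15 for Ccne1. The largest falls with no factor at 12 h were those of Rrm2, of ribonucleotide reductase (-2.66 ± 0.22), and of the helicase subunits Mcm6 (-2.59 ± 0.23) and Mcm3 (-2.17 ± 0.21). Of 34 tested G2/M genes, 32, 30, 28 and 6 were lower in the same order, with medians of -1.23, -0.91, -0.70 and -0.37; with no factor at 12 h Top2a, topoisomerase II alpha, read -2.49 ± 0.18 and Tacc3, a spindle protein, -1.82 ± 0.17. At 12 h, the S/G2/M member Ccna2 lay below the median of the G2/M list in both treatments, and Ccnb2 and Ccnf lay above it. The place of Ccnf rests on the average of its features, as H3020E11_1 alone (-1.74 and -1.24) lay below it. At 6 d Ccna2 and Ccnb2 lay below the median in both treatments, and Ccnf above it.

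**Figure D5:**
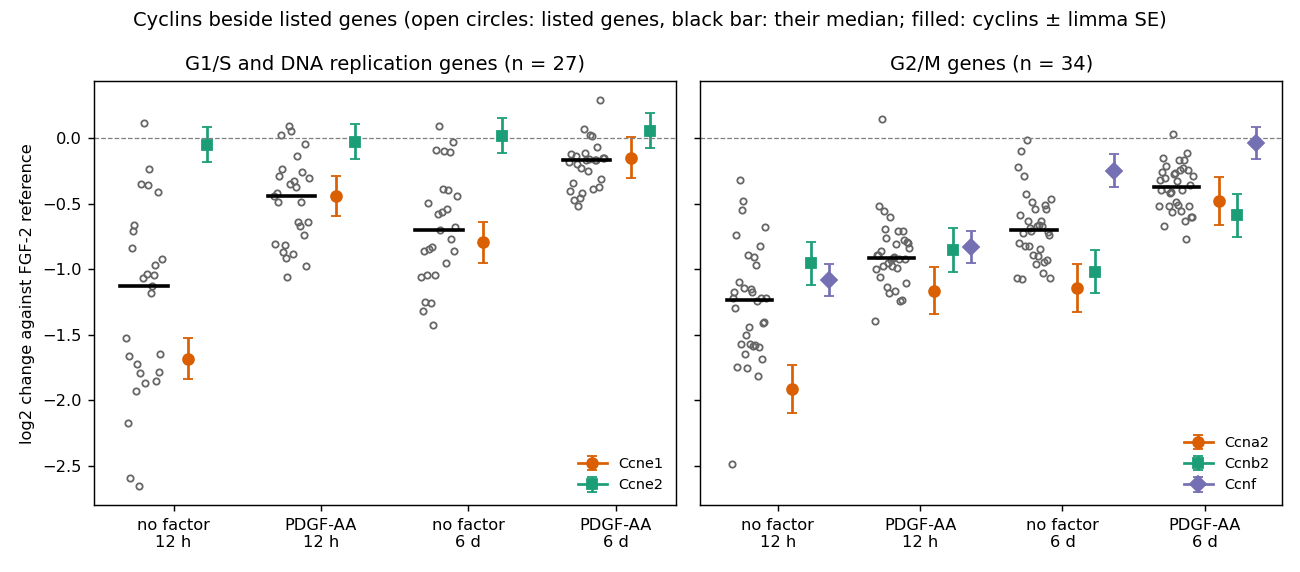
Log2 change against the FGF-2 reference (vertical axis) by group (horizontal axis) of 27 listed G1/S and replication genes beside Ccne1 and Ccne2 (left) and of 34 listed G2/M genes beside Ccna2, Ccnb2 and Ccnf (right). Open circles are listed genes, black bars their medians (-1.13 and -1.23 with no factor at 12 h), filled symbols the cyclins with limma SE.

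Of 8 other cyclins tested, 1 was lower and 2 higher with no factor at 12 h, and 2 were higher with no factor at 6 d. Ccnd2, a D-type cyclin of G1, was at -0.52 ± 0.09 (limma adjusted p = 0.000636), and Ccni and Ccnt2, the latter a partner of the transcription kinase Cdk9, were at 0.43 ± 0.10 and 0.44 ± 0.10. With PDGF-AA at 12 h only Ccnc, of the Mediator kinase module, was called, at -0.47 ± 0.11, and none was called with PDGF-AA at 6 d. Ccnd2 was higher at 6 d than at 12 h without factor, by 0.64 ± 0.12.

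Among 19 tested kinases, activators and inhibitors, 5 were lower and 3 higher with no factor at 12 h. Cdk1, the partner of cyclins A and B, was at -1.89 ± 0.17 and its small subunit Cks2 at -1.72 ± 0.17, close to Ccna2. The inhibitor of Cdk4 and Cdk6 encoded by Cdkn2c was lower (-1.56 ± 0.16), and the inhibitor Cdkn1c, p57, was higher (1.5 ± 0.41). Cdkn1c was also higher with no factor at 6 d (2.87 ± 0.41) and with PDGF-AA at 6 d (2.11 ± 0.41), and no other gene of the list was. At 6 d 4 were lower with no factor and 1 with PDGF-AA. The latter was Cdkn3 (-0.72 ± 0.15), named after its values were seen, which was called lower in all 4 groups. With PDGF-AA at 12 h 4 were lower, Cdk1 at -1.16 ± 0.17 among them, and 1 was higher. This was the G1 kinase Cdk4, named after its values were seen, which was called higher at 0.38 ± 0.10 in both treatments at 12 h.

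Of 11 tested genes of the E2F and retinoblastoma family, 5 were lower and 1 higher with no factor at 12 h. The E2F partner Tfdp1 read -0.87 ± 0.11 and Rbl1, the pocket protein p107, -0.84 ± 0.11, whereas Rbl2, p130, named after its values were seen as the only gene of the family called higher, read 0.50 ± 0.14. With PDGF-AA at 12 h 2 were lower, Rbl1 and E2f7, with no factor at 6 d 2, E2f5 and Rbl1, and with PDGF-AA at 6 d none was called. Among 17 tested subunits and cofactors of the SCF and APC/C ligases, which degrade cyclins, 5 were lower with no factor at 12 h, 4 with PDGF-AA at 12 h, 4 with no factor at 6 d and none with PDGF-AA at 6 d, and none was higher. The lowest were Ube2c, the ubiquitin carrier of the APC/C (-1.82 ± 0.15), its inhibitor Fbxo5 (-1.57 ± 0.18) and its activator Cdc20 (-1.33 ± 0.17).

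Of 12 other p53 pathway genes tested beside Ccng1, 2 were higher and 2 lower with no factor at 12 h. Btg2, an antiproliferative p53 target, read 0.86 ± 0.21 and Xpc, a DNA repair gene, 0.36 ± 0.09, while Gtse1, a G2 and S phase gene, read -1.02 ± 0.16 and Rps27l -0.71 ± 0.12. The list's median was -0.02, against the -0.60 of Ccng1, and 2 of the list were called lower with no factor at 6 d (Gtse1 and Rps27l), 1 with PDGF-AA at 12 h (Gtse1) and none with PDGF-AA at 6 d.

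The genes most like each cyclin were taken by Pearson's r of the dye-corrected ratios over the 16 arrays, among 6240 other named genes. The arrays share the reference, the dyes and the group design, so r is given as a description. Ccna2 ran most closely with Smc4 (0.970), a condensin subunit, Cks2 (0.970) and Tacc3 (0.969), and Ccne1 with Usp1 (0.969), Rrm2 (0.961) and Mcm6 (0.957). Ccnb2 ran with Tmpo (0.877), Cdc20 (0.870) and Dlgap5 (0.858), and Ccnf with Cdca2 (0.915), Asf1b (0.904) and Srrt (0.896). For Ccng1 they were Supt16 (0.926), Nup155 (0.896) and Shcbp1 (0.887), and for Ccne2 Was (0.884), Ctcf (0.821) and Ddx39a (0.748). Between members, r was 0.852 for Ccna2 and Ccne1, 0.841 for Ccna2 and Ccng1, 0.673 for Ccna2 and Ccnb2, and 0.362 for Ccne1 and Ccne2. The lowest were 0.282 for Ccnb2 and Ccnf among the S/G2/M trio, and 0.004 for Ccne2 and Ccng1 among all pairs.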

How the data were processed

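Each of the 16 arrays compared 40 µg of total RNA of a group with the FGF-2 reference, labelled with Cy3 or Cy5 and hybridised to mouse cDNA chips of about 15000 spots, and was read with a ScanArray scanner and QuantArray, per the labels. The authors deposited 1 log ratio per spot and array, taken here as log2, already turned the same way on swapped arrays; background correction, normalisation and spot filters are not given in the sources used here. All 16 columns were used.

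Here each array was centred on the median of its 15151 features (deposited medians -0.0053 to 0.0387), features of 1 symbol were averaged, and 12559 units (present on 3 or more arrays of each group) were fitted in R 4.3.3 by limma 3.58.1 with group and dye coefficients, empirical Bayes moderation and Benjamini-Hochberg adjustment. The step was tested on simulated data. No 2 arrays were identical. Features with several symbols (606) or none (5712) were tested but not named. The number of arrays limits the precision. Mouse symbols were matched to RefSeq rat genes of GRCr8 by symbol alone.

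All members are named. From each list up to 4 called genes were named by size of change, as were the 3 genes most like each member. The members and lists were chosen with earlier results of these data known, so their counts support nothing on their own. Alternatives changed the dye term, centring, scaling, title number, samples fitted, missing values, features, moderation and prior, and left out each array in turn. Replicate numbers follow accession order.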

Additional observations from a re-analysis of the deposited data

Results flagged for a closer look

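Of 24 groups of 4 arrays tested, 6 cyclins in 4 groups, 1 held an array far from the others; chance flags about 1 in 20 groups. For Ccna2 with no factor at 6 d, array 2 read -0.85 with the dye effect removed, while the other 3 read between -1.26 and -1.20. Its gap to the nearest array was 0.843 of the group's whole range, above Dixon's 95% critical value for 4 samples. Array 2 has the sample in Cy3 and the commonest title number, and Ccna2 stayed called lower in that group with each of the 16 arrays left out in turn.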

How the results depend on the processing

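No paired analysis was possible because the labels carry no replicate numbers that groups share. The counts of members called with no factor at 12 h (4 to 5 over all alternatives, main count 5) and at 6 d (3 to 4, main count 4), and the 0 for PDGF-AA against no factor at 6 d and for the interaction, stayed within 1.5 times of the main count. With PDGF-AA at 12 h against the reference (main count 4) the count was 2 where every feature of a member had to pass, and 2 to 4 leaving out each array. With PDGF-AA at 6 d (main count 0) it was 1 with the title number as a term (Ccna2) and 0 to 2 leaving out each array, 2 without array 1 of that group. Between PDGF-AA and no factor at 12 h (main count 0) it was 1 with the title number as a term, over arrays of the commonest title number and over the groups compared alone, and 0 to 1 leaving out each array.

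Between 6 d and 12 h without factor (main count 2) it was 0 with no dye term and with a common spread of arrays, 1 with no centring, the title number as a term, arrays of the commonest title number alone, no moderation, the groups compared alone and every feature passing, and 0 to 3 leaving out each array. With PDGF-AA (main count 1) it was 0 under no dye term, common spread, the title number as a term, arrays of the commonest title number alone, no moderation, the groups compared alone and every feature passing, and 0 to 1 leaving out each array. Of 400 alternative values of the members' 16 called changes, 341 kept the call, 59 lost it and 0 changed sign. Of 950 alternative values of their uncalled changes, 942 stayed uncalled, with the sign free to turn, and 8 gained a call. The cause of these shifts was not tested.

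Over all units, the processing alternatives called between 830 and 1577 with no factor at 12 h (main count 1468), 156 and 525 with PDGF-AA at 12 h (378), 990 and 1773 with no factor at 6 d (1723), 28 and 618 with PDGF-AA at 6 d (404), 0 and 25 between treatments at 12 h (2), 0 and 2 at 6 d (1), 87 and 246 between times without factor (235), and 11 and 164 with PDGF-AA (135). Leaving out each array, they were 740 to 1564, 76 to 489, 1012 to 1802, 157 to 461, 0 to 8, 1 to 58, 111 to 300 and 48 to 211 in the same order.

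The class difference of G1/S minus S/G2/M moved under alternatives chosen after seeing the data. With Ccne1 alone it was -0.37 with no factor at 12 h, 0.51 with PDGF-AA at 12 h and 0.0074 with no factor at 6 d. With Ccnf from feature H3020E11_1 alone it was 0.67 with no factor at 12 h. Signal over background was not used here, so what dim spots limit is unknown.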
